A study of Mus musculus with 40 samples.

Results

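Mitochondria are built from proteins of both genomes, and 10 genes of the nuclear genome that set how much mitochondrial DNA (mtDNA) is kept, copied and transcribed are described here in mouse liver. Ppargc1a and Ppargc1b encode the coactivators PGC-1α and PGC-1β. Esrra, Nrf1 and Gabpa encode the transcription factors ERRα, nuclear respiratory factor 1 and the DNA-binding subunit of GABP. Tfam, Tfb2m, Polrmt and Polg encode proteins that package, transcribe or copy mtDNA, and Lonp1 encodes a protease of the mitochondrial matrix. The genes were chosen by name and not by a measured value. All 10 were among the 55487 genes of the count table and among the 20297 genes that passed a filter on low counts. Their lowest count in a library was 102, for Ppargc1b, and their highest was 8433, for Lonp1.

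The livers came from female mice with a hepatocyte-specific deletion of Nampt, the enzyme that makes the NAD+ precursor NMN from nicotinamide (HNKO), and from WT mice, on the strain background C57BL/6JBomTac. HNKO mice carried Nampt fl/fl and Alb-Cre, so that Cre was driven by the albumin promoter, and the WT mice were floxed littermates without Cre. Both genotypes received a purified diet (PD), and livers were taken on day 3, 6, 12 or 21. The labels call these numbers an age, but the methods describe adult mice and give them as days of feeding. The 38 libraries used, each from whole liver of 1 mouse, were from 5 WT mice on day 3, 4 on day 6, 5 on day 12 and 5 on day 21, and from 5, 5, 6 and 3 HNKO mice on the same days. A further 2 HNKO libraries of day 21, numbers 17 and 18, are marked as failed in the labels and were left out.

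The coactivators bind transcription factors at promoters and raise their output. In liver, PGC-1α is known for its response to fasting, and PGC-1β for its response to feeding and fat. ERRα, nuclear respiratory factor 1 and GABP bind the promoters of genes of the respiratory chain and of the mtDNA machinery, among them Tfam. TFAM coats mtDNA and, with TFB2M and the RNA polymerase POLRMT, starts its transcription. POLG is the catalytic subunit of the polymerase that copies mtDNA, and LONP1 degrades damaged matrix proteins and unbound TFAM.

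Total counts of the 38 libraries were between 16151037 and 64181492. Nampt was lower in HNKO livers over the 4 days (log2 fold change -0.83, SE 0.12, edgeR adjusted p = 2.61e-06), with the smallest difference at day 21 (-0.69, edgeR adjusted p = 0.161). Since whole liver was sequenced, fewer cells of a type and less RNA per cell cannot be told apart. Over the 4 days, when 19.2% of all tested genes were called higher and 17.3% lower, 2 of 5 hepatocyte markers were called lower, with a median log2 fold change of -0.29, and none of them was at 0 in any library. Their summed level was 16.3 to 17.1 log2 CPM in the WT libraries and 15.7 to 16.8 in the HNKO libraries. The 5 cholangiocyte markers were all called higher, with a median log2 fold change of 1.58, and 4 of 5 stellate cell and myofibroblast markers were called higher, with a median of 1.16. The summed cholangiocyte markers were 5.09 to 5.60 log2 CPM in WT and 6.71 to 9.55 in HNKO, and the summed stellate cell markers were 6.54 to 7.71 in WT and 6.34 to 9.70 in HNKO. Of 4 macrophage markers 2 were called higher, and of 4 lymphocyte and leukocyte markers 1 was. Of 4 endothelial markers 1 was called lower. None of these markers was at 0 in any library. These cell type markers move with genotype, as the regulators do, and their part in the results below was not tested.

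Averaged over the 4 days, with each day weighted equally, 8 of the 10 regulators were lower in HNKO livers, and none was higher. In that comparison 36.4% of all tested genes were called in either direction, 17.3% lower and 19.2% higher. The median log2 fold change of the 10 genes was -0.26, whereas it was -0.01 over all tested genes, of which 51.2% were below 0. The 5 hepatocyte markers had a median of -0.29 in the same comparison. The genes called were Gabpa, Tfam, Polg, Lonp1, Tfb2m, Ppargc1a, Ppargc1b and Esrra, with log2 fold changes between -0.43 and -0.23. A gene was called where its adjusted p-value was under 0.05 in edgeR's quasi-likelihood test. Polrmt (-0.11, SE 0.05, edgeR adjusted p = 0.0842) and Nrf1 (-0.04, SE 0.04, edgeR adjusted p = 0.506) were not called. The plot of expression by library and the plot of fold changes show these differences day by day.

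**Figure D1:**
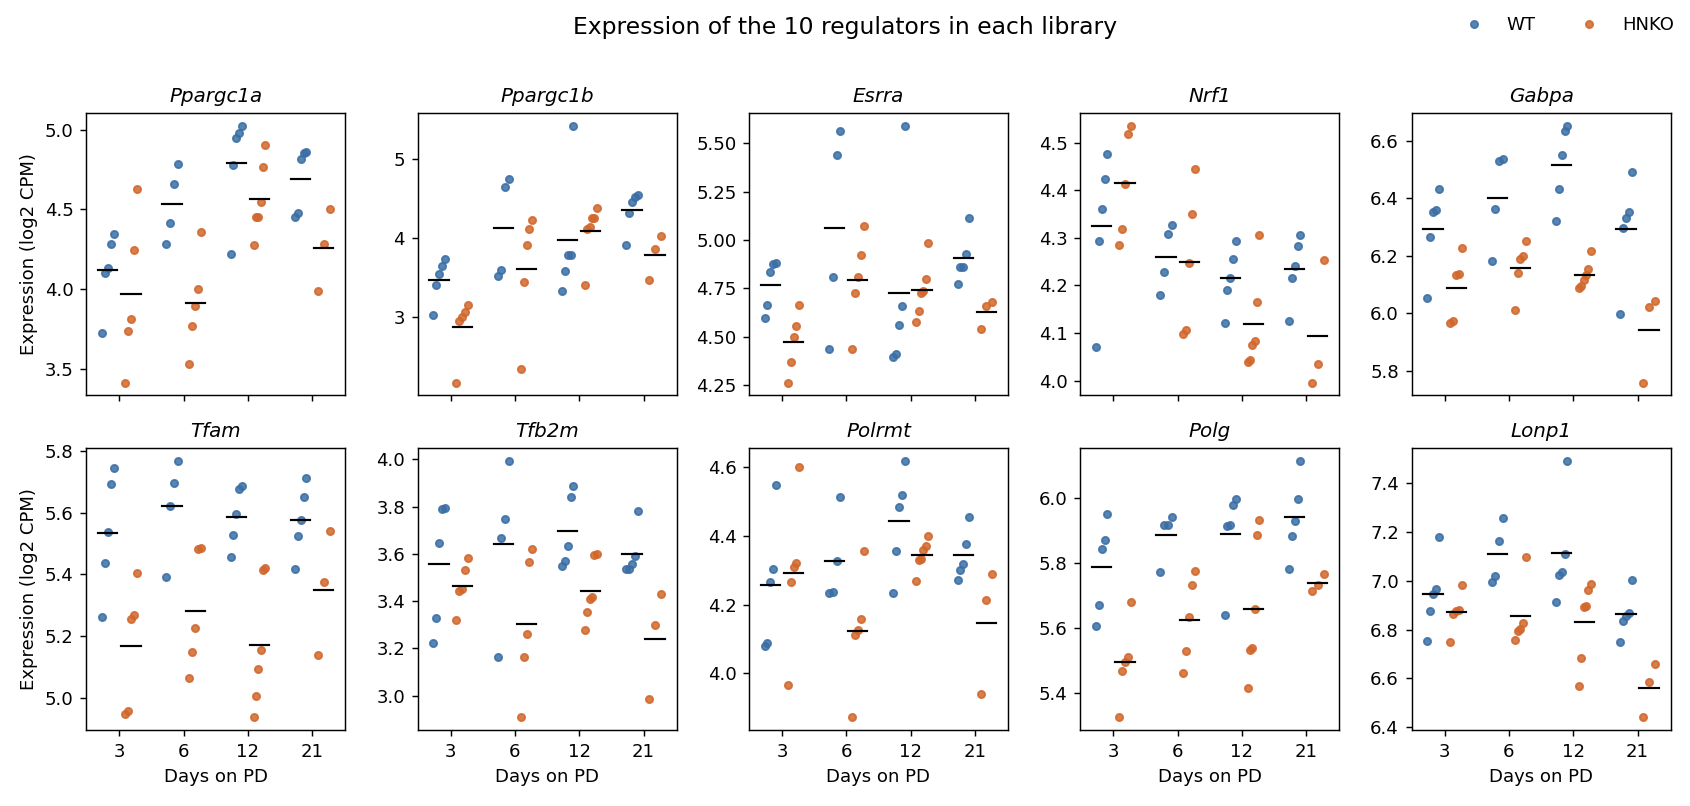
Expression of each regulator in log2 CPM (y axis) by days on PD (x axis), with 1 point per library, WT in blue and HNKO in orange, and a black line at each group's mean. The y axes differ between genes and do not start at 0. All HNKO points of Gabpa and Tfam at day 12 lie below all WT points, whereas the points of Nrf1 overlap at every day.

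**Figure D2:**
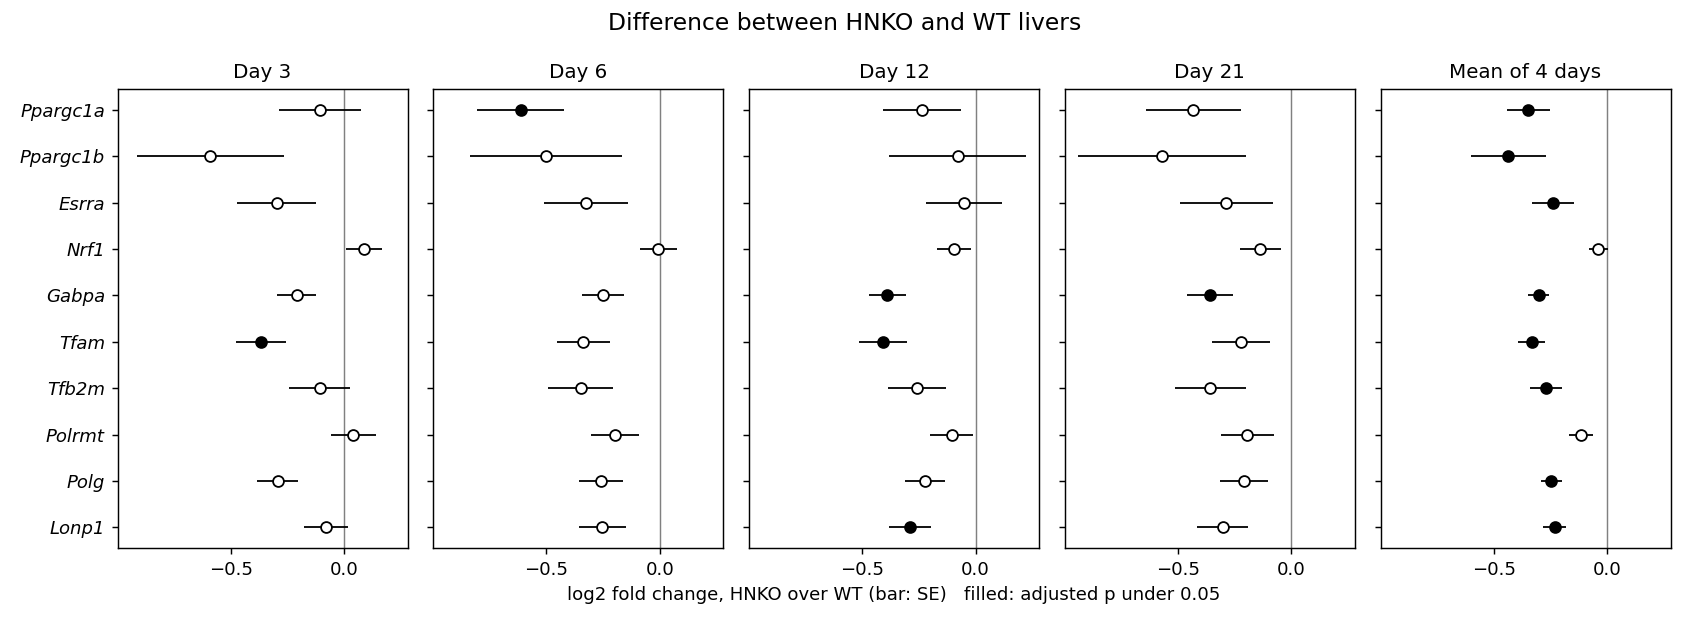
The log2 fold change of HNKO over WT (x axis) with its standard error for each regulator, at each day and as the mean of the 4 days. Filled points have an adjusted p under 0.05. At days 6, 12 and 21 all 10 points lie below 0, and at day 3 those of Nrf1 and Polrmt lie above it. Ppargc1b and Esrra at day 12 turn above 0 without WT library 16. Leaving out 1 library can also turn the sign of Nrf1 at day 6 and of Ppargc1a and Polrmt at day 3.

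Day by day, far fewer of the genes passed the test. At day 3, 1 of 10 was called, Tfam, while 4.66% of all tested genes were called and 1.71% were called lower. At day 6, 1 was called, Ppargc1a, beside 12.8% of all genes in either direction and 4.37% called lower. At day 12, 3 were called, Gabpa, Tfam and Lonp1, beside 7.82% in either direction and 3.27% called lower. At day 21, 1 was called, Gabpa, beside 3.12% in either direction and 0.916% called lower. All of these calls were lower in HNKO. The log2 fold change was below 0 for 8 of the 10 genes at day 3 and for 10 of 10 at each later day, with medians of -0.16, -0.29, -0.23 and -0.29 at days 3, 6, 12 and 21. For Ppargc1b and Esrra at day 12 the sign was not stable, since the group means of log2 CPM were higher in HNKO and the fitted values were above 0 without WT library 16 (0.49 and 0.24). Leaving out 1 library could also turn the sign of Nrf1 at day 6 (-0.01, up to 0.03). At day 3 it could turn that of Ppargc1a (-0.10, up to 0.02) and of Polrmt (0.04, down to -0.05). No gene of the table was called for an interaction of genotype and day (0% of the tested genes), and none of the 10 had an unadjusted p under 0.05 there, although 966 of all genes did. With DESeq2 that test called 16 genes, none of them among the 10.

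Exact two-sided permutation tests of log2 CPM, 1 for each gene and day, gave p under 0.05 for 5, 5, 4 and 4 of the 10 genes at days 3, 6, 12 and 21. The same test gave p under 0.05 for 15.5%, 22.2%, 20.6% and 15.4% of all tested genes. None of the 40 p-values was under 0.05 after Benjamini-Hochberg adjustment over the 40. With these group sizes the smallest p possible is 0.00794 at days 3 and 6, 0.00216 at day 12 and 0.0179 at day 21.

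PGC-1α is the coactivator most often named for mitochondrial biogenesis. At day 6, Ppargc1a was 4.78, 4.66, 4.41 and 4.28 log2 CPM in the WT livers. In the HNKO livers of that day it was 4.0, 4.36, 3.53, 3.77 and 3.9. A single HNKO library, number 7, reached into the WT range, and the other 4 were below all WT libraries. Here the log2 fold change was -0.61 (SE 0.19, edgeR adjusted p = 0.0296), which is 0.654 times the WT level. The call was lost without WT library 8 or 10 or HNKO library 29 or 30, with adjusted p-values between 0.0801 and 0.146. It was also lost with no filter (edgeR adjusted p = 0.0519), with the 2 groups of that day alone (edgeR adjusted p = 0.0503) and without libraries 16 and 29 together (edgeR adjusted p = 0.143).

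At the other days Ppargc1a was not called. The 5 WT livers of day 3 had 4.12 ± 0.24 log2 CPM (SD) and the 5 HNKO livers had 3.97 ± 0.47. By day 12 the level was 4.79 ± 0.33 (SD, n = 5) without and 4.57 ± 0.23 (SD, n = 6) with the deletion. At day 21 the values of WT and HNKO were 4.69 ± 0.21 (SD, n = 5) and 4.26 ± 0.26 (SD, n = 3). Averaged over all days the log2 fold change was -0.35 (SE 0.09, edgeR adjusted p = 0.00392), and it was called in 38 of 38 fits that left out 1 library each.

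PGC-1β is the second coactivator of the family. At day 3, Ppargc1b was 3.65, 3.73, 3.41, 3.55 and 3.03 log2 CPM in WT and 3.06, 3.15, 3.0, 2.96 and 2.17 in HNKO livers. At that day 4 HNKO libraries lay close together near the lowest WT value, and library 23 lay far below them. The log2 fold change of -0.59 (SE 0.32, edgeR adjusted p = 0.304) did not pass the test. Among the 5 WT mice of day 12 its SD was 0.83, the highest of the 10 genes in that group. Across the 4 days its log2 fold change was -0.43 (SE 0.17, edgeR adjusted p = 0.0387). That call held in 24 of 38 fits that left out 1 library each. It was lost without WT library 1, 5, 8, 10, 16, 20 or 41 or HNKO library 23, 29, 30, 35, 36, 37 or 40, with adjusted p-values between 0.0516 and 0.102.

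ERRα is an orphan nuclear receptor and a main partner of both coactivators. At day 21, Esrra was 5.11, 4.86, 4.86, 4.93 and 4.78 log2 CPM in WT and 4.54, 4.66 and 4.68 in HNKO livers, with no overlap. The log2 fold change there was -0.29 (SE 0.20, edgeR adjusted p = 0.496). At day 12 the WT values were 4.56, 4.41, 5.59, 4.66 and 4.40, and the HNKO values ran from 4.58 to 4.98 with a median of 4.73. A single WT library, number 16, lay above all HNKO libraries, and the other WT libraries lay at or below the HNKO median. Over the 4 days the log2 fold change was -0.24 (SE 0.09, edgeR adjusted p = 0.0389), and this call too held in 24 of 38 such fits. It was lost without WT library 8, 10, 16, 19, 25 or 26 or HNKO library 2, 23, 29, 30, 35, 37, 38 or 40, with adjusted p-values between 0.0514 and 0.0988.

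Some of the libraries on which the calls of Ppargc1b and Esrra depend stood apart in clock genes. A clock score was computed for each library as the mean z-score of Dbp, Tef, Nr1d1, Nr1d2, Per3 and Ciart minus that of Arntl, Npas2 and Clock, which peak at opposite times of day in liver. WT libraries 16 (day 12), 10 and 8 (both day 6) had the highest scores, 3.57, 3.18 and 2.58. Their Ppargc1b levels were 5.42, 4.65 and 4.75 log2 CPM, and their Esrra levels were 5.59, 5.56 and 5.44. These were the 3 highest levels of both genes in the 38 libraries. HNKO library 29 (day 6) had the lowest score, -3.19, with Esrra at 4.44 and with Ppargc1b at 2.34, below all other libraries except number 23.

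Without libraries 16 and 29, left out together after the data were seen, the log2 fold change over the 4 days was -0.22 for Ppargc1b (edgeR adjusted p = 0.148) and -0.13 for Esrra (edgeR adjusted p = 0.165). At day 12 both then turned to higher in HNKO, at 0.51 for Ppargc1b (edgeR adjusted p = 0.155) and 0.26 for Esrra (edgeR adjusted p = 0.254). On the scale of mean log2 CPM, HNKO was already the higher group at day 12 with all libraries, by 4.09 to 3.98 for Ppargc1b and by 4.74 to 4.72 for Esrra, although the fitted log2 fold changes were -0.08 and -0.05. With the clock score as a term in the fit, both were called over the 4 days (Ppargc1b -0.41, adjusted p = 0.000153; Esrra -0.22, edgeR adjusted p = 0.00029). With the term, 7 of the 10 regulators were called at day 6, when 16% of all tested genes were. The clock scores themselves differed between genotypes at some days. At day 12 they were -2.87, -2.50, -1.89, -1.87 and 3.57 in WT and ran from -1.33 to 2.37 in HNKO. At day 3 they ran from -1.49 to 0.32 in WT and from -2.03 to -0.95 in HNKO. None of the 9 clock genes was called at any day or over the 4 days by edgeR. Over the 4 days the smallest p on the side of Arntl was that of Npas2 (-0.49, SE 0.39, edgeR adjusted p = 0.344), and on the side of Dbp that of Ciart (-0.86, SE 0.57, edgeR adjusted p = 0.252). The time of day of sampling was not tested. Without libraries 16 and 29, 6 of the 10 were called over the 4 days, beside 32.4% of all genes.

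**Figure D3:**
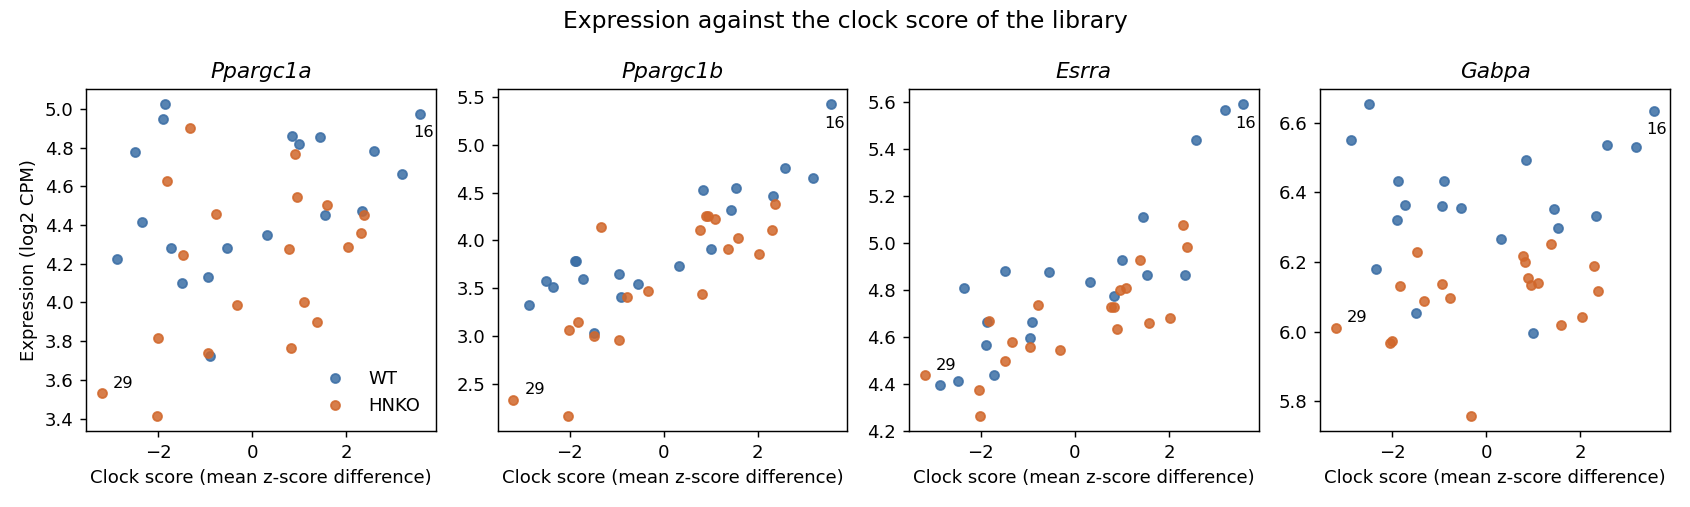
Expression of Ppargc1a, Ppargc1b, Esrra and Gabpa in log2 CPM (y axes) against the clock score of the library (x axis), with 1 point per library, WT in blue and HNKO in orange. Libraries 16 and 29 are marked. Ppargc1b and Esrra are highest in the 3 libraries with the highest scores, at 4.65 log2 CPM or more for Ppargc1b and 5.44 or more for Esrra.

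Nuclear respiratory factor 1, encoded by Nrf1 and unrelated to the stress factor that is also called NRF1, showed no difference past the test. Its log2 fold changes were 0.09 (SE 0.08), -0.01 (SE 0.08), -0.10 (SE 0.07) and -0.14 (SE 0.09) at days 3, 6, 12 and 21. The WT and HNKO libraries overlapped at every day.

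GABPα carries the DNA-binding domain of GABP and is an ETS family factor. At day 12, Gabpa was 6.32, 6.65, 6.63, 6.43 and 6.55 log2 CPM in WT livers, and ran from 6.09 to 6.22 with a median of 6.13 in the 6 HNKO livers. Every HNKO library was below every WT library, and the HNKO values spread less than the WT values. This gave a log2 fold change of -0.39 (SE 0.08, edgeR adjusted p = 0.00549), and the exact permutation p was 0.00216, the smallest that this day allows (0.0794 after adjustment). The call held in 11 of 11 fits that left out 1 library each.

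At day 21, Gabpa was 6.35, 6.30, 6.33, 6.00 and 6.49 in WT and 5.76, 6.02 and 6.04 in HNKO livers. WT library 39 lay below 2 of the 3 HNKO libraries. HNKO differed from WT by a log2 fold change of -0.36 (SE 0.10, edgeR adjusted p = 0.0434), and the call held in 1 of 8 fits that left out 1 library each. It was lost without WT library 19, 20, 21 or 41 and without any 1 of the 3 HNKO libraries, with the highest adjusted p of 0.559 without HNKO library 37. It was also lost with the label series as a term (-0.31, edgeR adjusted p = 0.0668), a split of the libraries by their number, and with the 2 groups of that day alone (edgeR adjusted p = 0.121). At days 3 and 6 the log2 fold changes were -0.21 and -0.25, with adjusted p-values of 0.154 and 0.066 (edgeR). Averaged over all days it was -0.30 (SE 0.05, edgeR adjusted p = 3.87e-06), or 0.812 times the WT level.

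TFAM packages mtDNA into nucleoids. At day 3, Tfam was 5.26, 5.44, 5.74, 5.69 and 5.54 log2 CPM in WT and 4.95, 4.96, 5.27, 5.41 and 5.25 in HNKO livers. Of the HNKO libraries 3 lay below all WT libraries and the other 2 lay within the lower part of the WT range. The fitted log2 fold change was -0.37 (SE 0.11, edgeR adjusted p = 0.0476). This call held in 3 of 10 fits that left out 1 library each. It was lost without HNKO library 2, 3 or 23 or WT library 5, 24, 25 or 26, with adjusted p-values between 0.0593 and 0.155. It was also lost with no filter, with all 40 libraries, with the clock score as a term and with the 2 groups of that day alone, with edgeR adjusted p-values between 0.058 and 0.144.

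At day 12, Tfam was 5.46, 5.53, 5.59, 5.68 and 5.68 in WT livers and ran from 4.94 to 5.42 with a median of 5.12 in HNKO livers. The groups did not overlap. Here the log2 fold change was -0.41 (SE 0.11, edgeR adjusted p = 0.0163), 0.754 times the WT level, and was called in 11 of 11 fits that left out 1 library each. With the 2 failed libraries included it was not called (edgeR adjusted p = 0.0716). At days 6 and 21 it was -0.34 (adjusted p = 0.0513) and -0.22 (edgeR adjusted p = 0.378). Across the 4 days it was -0.33 (SE 0.06, edgeR adjusted p = 2.88e-05).

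The lack of overlap can be read against all tested genes. Every HNKO library was below every WT library for none of the 10 genes at days 3 and 6, when 1.8% and 4.68% of all tested genes were so. At day 12 this held for 2 of the 10, Gabpa and Tfam, and for 2.14% of all genes. At day 21, with 3 HNKO libraries, it held for 4 of the 10, Esrra, Tfb2m, Polg and Lonp1, and for 6.7% of all genes.

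TFB2M melts the promoter DNA of mtDNA for POLRMT. At day 21, Tfb2m was 3.59, 3.56, 3.54, 3.54 and 3.78 log2 CPM in WT and 2.98, 3.43 and 3.30 in HNKO livers. The groups did not overlap there, but the log2 fold change of -0.36 (SE 0.16, edgeR adjusted p = 0.21) did not pass the test. Over the 4 days it was -0.27 (SE 0.07, edgeR adjusted p = 0.00289). Of its transcripts' stretches of 51 bases, the length of a read, 31.8% also occur in the gene Gm1818, so its counts are uncertain.

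POLRMT is the mitochondrial RNA polymerase itself. On day 3 the WT livers had 4.26 ± 0.19 log2 CPM of Polrmt (SD, n = 5) and the HNKO livers 4.29 ± 0.23 (SD, n = 5). At day 12 WT and HNKO had 4.44 ± 0.15 (SD, n = 5) and 4.34 ± 0.04 (SD, n = 6). The groups overlapped at every day. Its log2 fold change was 0.04 at day 3 and between -0.20 and -0.11 at the later days, and none was called. Averaged over all days it passed the test without HNKO library 7 or 22, with adjusted p-values of 0.0479 and 0.028 (edgeR).

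POLG copies mtDNA. Polg at day 6 was 5.92, 5.77, 5.94 and 5.92 log2 CPM in WT and 5.63, 5.46, 5.53, 5.78 and 5.73 in HNKO livers. HNKO library 30, at 5.78, reached just above the lowest WT library. Its log2 fold changes of -0.29, -0.26, -0.22 and -0.21 at days 3, 6, 12 and 21 were close to each other and had adjusted p-values of 0.0552, 0.0728, 0.106 and 0.301 (edgeR). Across the 4 days it was -0.25 (SE 0.05, edgeR adjusted p = 0.000126). With the label series as a term, the run of library numbers, it was called at each of the 4 days, at -0.26, -0.28, -0.25 and -0.31 (adjusted p between 0.0145 and 0.0406, edgeR).

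LONP1 is an ATP-dependent protease that also controls the amount of TFAM. At day 12, Lonp1 was 7.03, 7.11, 7.49, 7.02 and 6.91 log2 CPM in WT livers and ran from 6.57 to 6.99 with a median of 6.89 in HNKO livers. WT library 16 was again the highest. This gave a log2 fold change of -0.29 (SE 0.09, edgeR adjusted p = 0.0463), which was -0.18 (edgeR adjusted p = 0.212) without library 16. The call was also lost without WT library 15 or 33 or HNKO library 13, 35 or 36, with adjusted p-values between 0.0574 and 0.132. Of the settings tried, it was lost as well with the size factors of DESeq2, with no filter, with 10 counts in every library, with all 40 libraries, with the 2 groups of that day alone and without libraries 16 and 29, with edgeR adjusted p-values between 0.0503 and 0.274. At day 21 Lonp1 was 6.86, 6.87, 7.0, 6.75 and 6.83 in WT and 6.44, 6.66 and 6.59 in HNKO livers, with no overlap and a log2 fold change of -0.30 (SE 0.11, edgeR adjusted p = 0.132). Over the 4 days it was -0.23 (SE 0.05, edgeR adjusted p = 0.000475).

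The labels number the libraries in 2 runs that each pass through all days, 1 to 21 and 22 to 41, called label series here. What the series stand for is not given in the labels. HNKO and WT could be compared within a series 7 times, since at day 21 the HNKO libraries used are all of the second series. Mean log2 CPM was lower in HNKO in 7 of 7 of these comparisons for Ppargc1a, Gabpa, Tfam, Polg and Lonp1, in 6 for Ppargc1b and Tfb2m, in 5 for Esrra and Polrmt, and in 4 for Nrf1. The differences within a series were between -0.39 and -0.12 for Gabpa and between -0.51 and -0.15 for Tfam. Levels also differed between the first and second series, as for Lonp1 (7.21 and 7.01, WT, day 6) and Tfam (5.35 and 5.66, WT, day 3). The WT libraries of day 21 are of both series, so the differences of that day can hold one between series. Within the second series they were -0.23 for Lonp1, -0.42 for Tfb2m, -0.26 for Polg and -0.22 for Esrra. With the series as a term, Ppargc1b (-0.33, adjusted p = 0.0669) and Esrra (-0.20, adjusted p = 0.069) were not called over the 4 days (edgeR), and neither was Gabpa at day 21.

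Levels were also compared over the days of feeding. In HNKO livers a day effect was called for 2 of the 10, Ppargc1a (edgeR adjusted p = 0.0392) and Nrf1 (edgeR adjusted p = 0.0234), and for 7.9% of all tested genes. Mean Ppargc1a was 3.97, 3.91, 4.57 and 4.26 log2 CPM at days 3, 6, 12 and 21, and mean Nrf1 was 4.41, 4.25, 4.12 and 4.09. Only 1 or none of the 10 was called for a day effect in HNKO without library 2, 4, 6, 12, 13, 22, 30, 31, 35, 38 or 40. In WT livers no day effect was called among the 10 in edgeR, beside 5.84% of all tested genes. An unadjusted p under 0.05 was found for 3 of the 10 and for 21.2% of all tested genes. DESeq2 called 1 of the 10, beside 12.1% of all genes. Mean Ppargc1a in WT was 4.12, 4.54, 4.79 and 4.69 at the 4 days (edgeR adjusted p = 0.062). The clock score differed between days as well, from -1.49 to 0.32 in WT at day 3 and from 0.84 to 2.33 in WT at day 21. The part of the time of day in these levels was not tested.

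Levels can be compared between genes only per length, as log2 FPKM, for which CPM was divided by the exon length of each gene. In the 19 WT libraries Lonp1 was the highest of the 10 at 4.87 ± 0.18 (SD, n = 19), followed by Gabpa at 3.87 ± 0.18 and Tfam at 3.43 ± 0.14. Esrra (2.72 ± 0.36), Polg (2.45 ± 0.13), Tfb2m (2.13 ± 0.22), Polrmt (2.11 ± 0.15), Ppargc1b (1.97 ± 0.61) and Ppargc1a (1.81 ± 0.36) came next, and Nrf1 was the lowest at 0.89 ± 0.10. The order of Lonp1 over Gabpa, Gabpa over Tfam, and Ppargc1a over Nrf1 was the same in 19 of 19 WT libraries. Tfb2m was above Polrmt in 7 of 19, Polrmt above Ppargc1b in 12, and Ppargc1b above Ppargc1a in 11, so these neighbors did not differ beyond their spread. Tfam was above Esrra in 17 of 19. Esrra was above Polg in 15 of 19, by a mean of 0.27 (SD 0.36), and Polg above Tfb2m in 15 of 19, by 0.32 (SD 0.28), so these orders did not hold in every library.

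The string CCGGAAG, called the core here, is 1 form of the sites that ETS factors such as GABP bind. The 250 bases before the start of each gene were searched for it, since Gabpa and several of the others moved the same way. The RefSeq promoters (GRCm38.p6) held an entry for 9 of the 10 genes that could be used. The core, on either strand, occurred in those of Gabpa, Tfam, Polrmt and Polg, and in 6.91% of 32851 RefSeq promoters. The starts are those of the RefSeq entries. For Gabpa, Tfam and Polg they lie inside the span that GENCODE M21 gives the gene, so that their matches lie within that span. The 27 bases around each match are shown 5′ to 3′ on the strand of the gene, with the core in capitals, where CTTCCGG is the core on the other strand.
Gabpa (chr16:84835021-84835047, plus strand, 93 to 87 bases before the start): agggtaagtgCTTCCGGgtccctcagc
Tfam (chr10:71238075-71238101, minus strand, 47 to 41 bases before the start): ctgccgcggaCCGGAAGtccgggcttc
Polrmt (chr10:79746608-79746634, minus strand, 43 to 37 bases before the start): cctaagagcgCTTCCGGcagtcgcaga
Polg (chr7:79466295-79466321, minus strand, 38 to 32 bases before the start): aggacctcacCCGGAAGtccctctgca
Of the 4 genes with the core, 3 were called lower over the 4 days, Gabpa, Tfam and Polg. Of the 5 searched genes without it, 4 were, Ppargc1a, Esrra, Tfb2m and Lonp1. The NRF1 core GCGCATGCG, the ERR element TCAAGGTCA and the cAMP response element TGACGTCA, which occur in 1.45%, 0.387% and 1.55% of all promoters, were not in these windows of the 9 genes. A match is only a match of letters, and no binding was measured. Only exact strings were searched, so a gene without a match can still hold a variant of such a site.

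The 10 genes lie on 9 chromosomes of GRCm38, with Tfam (chromosome 10, 71225464 to 71238280, minus strand) and Polrmt (chromosome 10, 79736123 to 79746581, minus strand) on the same one. Gabpa (chromosome 16, 84834925 to 84863779, plus strand) shares 6.98% of its exon bases with Atp5j on the opposite strand, which had a median of 2138 counts beside 2042.5 for Gabpa in the 40 libraries. Polg (chromosome 7, 79446231 to 79466362, minus strand) shares 8.57% of its exon bases with Fanci on the opposite strand, which had a median of 20 counts. Whether counting used the strand is not given in the sources used here, so a part of the Gabpa and Polg counts is uncertain. The other positions are chromosome 5, 51454250 to 51567726 for Ppargc1a, chromosome 18, 61298136 to 61400431 for Ppargc1b, chromosome 19, 6910977 to 6921813 for Esrra, chromosome 1, 179528055 to 179546267 for Tfb2m and chromosome 17, 56614297 to 56626887 for Lonp1, all on the minus strand, and chromosome 6, 30047988 to 30153458 on the plus strand for Nrf1.

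Within groups, the 10 genes did not move as 1 block. Over the 38 libraries, the deviations from the group means gave 45 correlations between pairs, of which 28 were above 0, with a median r of 0.10 and a range from -0.36 to 0.75. The pairs Ppargc1b with Esrra (r = 0.75), Tfam with Polg (r = 0.75) and Ppargc1b with Lonp1 (r = 0.74) were the highest, and Polg with Lonp1 (r = -0.36) was the lowest. Among all other tested genes, those most like Ppargc1a were Crcp (r = 0.76) and Pdk2 (r = 0.74), and those most like Ppargc1b were Ptgr2 and Clmn (r = 0.90 for both). Slc5a6 (r = 0.92) and Gpd1l (r = 0.89) were most like Esrra, and Gcsh and Azi2 (r = 0.90 for both) were most like Tfam. These r are descriptions, since the points share libraries and depth. The group means are of genotype and day only, so differences between label series and in clock score stay in these r. In HNKO at day 12, mean log2 CPM in the first and second series was 5.01 and 5.33 for Tfam and 5.50 and 5.83 for Polg. For Lonp1 it was 6.95 and 6.71. The part of series and clock score in these r was not tested.

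The other genes of the network were read from fixed lists, over the 4 days. Of 19 further regulators around the coactivators 9 were lower and 1 was higher, with a median log2 fold change of -0.16. Pprc1, a relative of PGC-1, was higher (0.36, SE 0.10, edgeR adjusted p = 0.00368). Esrrg, which encodes the related receptor ERRγ, was lower (-1.03, SE 0.16, edgeR adjusted p = 4.51e-06), and so was Prkaa2, a catalytic subunit of AMPK (-0.28, SE 0.05, edgeR adjusted p = 2.81e-05). The Esrrg difference was called at days 3, 6 and 12, with log2 fold changes of -1.15, -1.63 and -0.95, and was -0.41 at day 21 (edgeR adjusted p = 0.567). Mean Esrrg was 2.13, 2.7, 3.07 and 2.93 log2 CPM in WT and 1.0, 0.84, 2.19 and 2.54 in HNKO livers over the 4 days.

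Genes that work beside Polg and Tfam were called in both directions. Of 17 genes of mtDNA replication and nucleotide supply 7 were lower and 2 were higher, with a median of -0.09. Twnk, the helicase of the mtDNA replisome, was lower (-0.29, SE 0.04, edgeR adjusted p = 1.74e-06), as was Atad3a, a membrane protein linked to nucleoids (-0.32, SE 0.05, edgeR adjusted p = 1.13e-05). Exog, a mitochondrial nuclease (0.34, SE 0.09, edgeR adjusted p = 0.0031), and Samhd1, which degrades deoxynucleotides (0.15, SE 0.04, edgeR adjusted p = 0.00653), were higher. Of 18 tested genes of mitochondrial transcription and RNA processing 7 were lower and none was higher, with a median of -0.14. Both named genes of that list, Hsd17b10 (-0.42, SE 0.08, edgeR adjusted p = 4.8e-05) and Trmt10c (-0.23, SE 0.06, edgeR adjusted p = 0.00146), encode subunits of mitochondrial RNase P.

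Of 16 mitochondrial proteases and chaperones, the list to which Lonp1 is related, 10 were lower and none was higher, with a median of -0.17. Hspe1, the co-chaperonin HSP10, was at -0.37 (SE 0.06, edgeR adjusted p = 2.7e-05), and Afg3l2, a protease of the inner membrane, was at -0.25 (SE 0.05, edgeR adjusted p = 5.48e-05). All 11 respiratory and TCA cycle genes, known targets of ERRα, GABP or nuclear respiratory factor 1, were called lower, with a median of -0.29 and a range from -0.46 to -0.21. Acadm, which starts the oxidation of medium-chain fatty acids, was at -0.46 (SE 0.07, edgeR adjusted p = 5.29e-06). Of 7 fasting response genes 2 were lower and none was higher, and Angptl4, an inhibitor of lipoprotein lipase, was one of those lower (-0.71, SE 0.20, edgeR adjusted p = 0.00496). The shares of these lists stand beside the 17.3% of all tested genes that were called lower. The shares called higher stand beside 19.2%.

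The RNAs of mtDNA that could be tested were lower too. Of 15 mitochondrially encoded genes in the list, 10 were tested. The others, mt-Nd4l, mt-Co2, mt-Co3, mt-Atp6 and mt-Atp8, had at most 7 counts in any of the 38 libraries, whereas mt-Co1 had at least 158937. Among the tested genes mt-Nd3 had only 32 to 181 counts. Since mt-Co2, mt-Co3 and mt-Atp6 are abundant RNAs in liver, these low counts do not give their levels, and why they are low was not tested. All 10 tested genes were called lower over the 4 days, with a median log2 fold change of -0.55 and a range from -0.93 to -0.39. Their median was -0.10, -0.58, -0.73 and -0.87 at days 3, 6, 12 and 21, with 0, 0, 3 and 2 of 10 called. The interaction test called none of them. The lowest values were those of the mitochondrial rRNAs mt-Rnr1 (-0.93) and mt-Rnr2 (-0.88). At day 21, with 3 HNKO libraries that are all of the second label series, they were -2.21 and -1.93. At the earlier days both were between -0.84 and -0.11. The genes called were mt-Rnr2, mt-Nd3 and mt-Nd6 at day 12, and only the 2 rRNAs at day 21. The libraries were depleted of rRNA, and the part of this step in the values of the rRNAs was not tested.

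**Figure D4:**
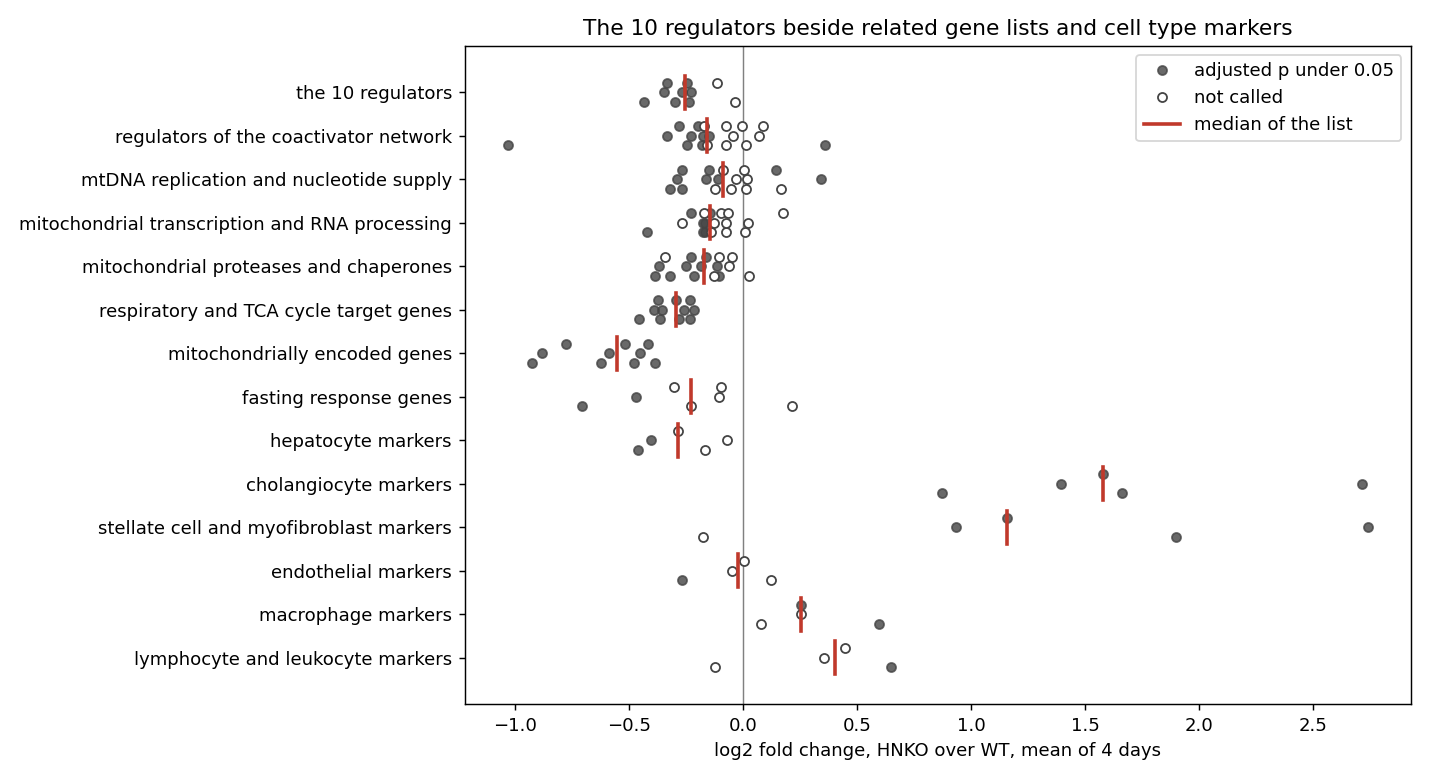
The log2 fold change of HNKO over WT over the 4 days (x axis) for every tested gene of each list (rows), with 1 point per gene, filled where the adjusted p was under 0.05, and a red line at the median of the list. The 10 regulators have a median of -0.26 and the mitochondrially encoded genes of -0.55, whereas the cholangiocyte markers have a median of 1.58.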

How the data were processed

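RNA of whole liver was depleted of rRNA and sequenced as paired reads of 51 bases from stranded libraries. The authors aligned reads with STAR 2.7.2b to GRCm38 with the GENCODE M22 genes and counted fragments per gene with featureCounts 1.6.4, and deposited raw counts, 1 column per library. Whether counting used the strand is not given in the sources used here.

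The counts of 38 libraries, without the 2 labelled as failed, were tested with edgeR 4.0.16 (R 4.3.3, quasi-likelihood test with its earlier dispersion computation, TMM) with 1 mean per genotype and day. Genes were kept by filterByExpr (minimum count 10, minimum total 15, proportion 0.7). P-values were adjusted by Benjamini-Hochberg over the 20297 genes tested in each comparison. Levels are log2 CPM with a prior count of 2. The scripts were tested on simulated data. Among 74 pairs of libraries of 1 group the lowest chi-square per gene was 14.0, so no library was counted as a copy. Libraries are separate mice. Totals of 16151037 to 64181492 counts limit the precision of low genes.

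The 10 genes were all named. Of every other list at most 2 called genes in each direction were named, those with the smallest p over the 4 days, or the 1 gene with the smallest p where none was called. Some genes that this rule names are not reported here. The mitochondrially encoded genes and cell type markers were given as counts and ranges. Exceptions were the mitochondrial rRNAs, mt-Nd3 and mt-Nd6, which were named after their values were seen. Likeness was Pearson's r of deviations from group means, with the 2 highest genes named. The genes, lists and tests were chosen with earlier results of these data known. Exon lengths and positions are from GENCODE M21 and promoters from RefSeq. Alternatives were the size factors of DESeq2, DESeq2 1.42.0, no filter, a filter of 10 counts in every library, all 40 libraries, the newer edgeR dispersion, label series or clock score as a term, the groups of 1 day alone and leaving out each library.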

Additional observations from a re-analysis of the deposited data

Results flagged for a closer look

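In 8 of 70 groups of 4 to 6 libraries, 7 groups for each of the 10 genes, 1 library lay far from the others by Dixon's test, which chance alone gives in about 1 in 20 groups. Ppargc1b was 2.17 log2 CPM in HNKO library 23 at day 3, where the others were 2.96 to 3.15. It was 5.42 in WT library 16 at day 12 (others 3.32 to 3.79) and 3.41 in HNKO library 36 at day 12 (others 4.11 to 4.38). Esrra was 5.59 in WT library 16 (others 4.40 to 4.66). Tfb2m was 3.78 in WT library 41 at day 21 (others 3.54 to 3.59). Polg was 5.77 in WT library 10 at day 6 (others 5.92 to 5.94) and 5.64 in WT library 15 at day 12 (others 5.91 to 6.00). Lonp1 was 7.10 in HNKO library 7 at day 6 (others 6.76 to 6.83). Library 16 also had the highest clock score of the 38 libraries, and the part of this in its values was not tested.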

How the results depend on the processing

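Of 500 log2 fold changes of the 10 genes recomputed under alternatives other than leaving out a library, 449 kept their direction and side of the threshold, and 5 turned direction. No paired analysis was possible because library numbers are unique and no groups share them. The share of all genes called in the same fit stands in brackets. At day 3 the number of the 10 genes called, 1 (4.66%), became 2 with the size factors of DESeq2 (4.76%), with DESeq2 (7.04%), with the label series as a term (5.77%) and without libraries 16 and 29 (7.11%). It became 0 with no filter (1.6%), with all 40 libraries (1.66%), with the clock score as a term (4.64%) and with the groups of that day alone (2.42%). At day 6 it went from 1 (12.8%) to 2 with the size factors of DESeq2 (12.8%) and with DESeq2 (14.4%), to 4 with the label series (14.8%) and to 7 with the clock score (16%). It went to 0 with no filter (4.9%), with the groups of that day alone (7.53%) and without libraries 16 and 29 (5.93%). At day 12 it went from 3 (7.82%) to 1 with all 40 libraries (3.12%). There it was 2 with the size factors of DESeq2 (7.74%), with no filter (2.76%), with 10 counts in every library (8.35%), with the groups of that day alone (4.79%) and without libraries 16 and 29 (7.22%), and 4 with the label series (9.85%) and with the clock score (18.8%). At day 21 it went from 1 (3.12%) to 2 with all 40 libraries (6.76%) and with the clock score (4.75%), and to 0 with no filter (1.16%) and with the groups of that day alone (3.62%). For the day effect in WT, 0 (5.84%) became 1 with DESeq2 (12.1%) and with 10 counts in every library (9.56%), 2 with the label series (11%) and without libraries 16 and 29 (7.57%), and 4 with the clock score (15.3%). For the day effect in HNKO, 2 (7.9%) became 0 with no filter (2.96%) and 4 with the clock score (16.4%). The cause of these changes was not tested. Nrf1 at day 6 turned to 0.0087 with no filter and to 0.028 with 10 counts in every library. Ppargc1b at day 12 turned to 0.038 with the label series and to 0.51 without libraries 16 and 29, where Esrra turned to 0.26.

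Leaving out 1 library at a time gave 0 to 2 genes called at day 3 (1.59% to 8.24% of all genes), 0 to 2 at day 6 (5.58% to 15%), 2 to 4 at day 12 (4.21% to 8.66%), 0 to 1 at day 21 (0.0627% to 3.45%) and 6 to 9 over the 4 days (28.7% to 37.5%). It gave 0 to 1 for the day effect in WT (4% to 6.83%) and 0 to 3 for that in HNKO (5.73% to 8.73%). The log2 fold change ran from -0.30 to 0.018 for Ppargc1a and from -0.054 to 0.12 for Polrmt at day 3, from -0.039 to 0.031 for Nrf1 at day 6, and from -0.24 to 0.49 for Ppargc1b and from -0.14 to 0.24 for Esrra at day 12. Over the 4 days, 8 genes (36.4%) were called also with the size factors of DESeq2 (36.6%), with DESeq2 (37.8%), with all 40 libraries (29.9%) and with the clock score (39.9%), 7 with 10 counts in every library (39.1%), and 6 with no filter (17.6%), with the label series (38.9%), without libraries 16 and 29 (32.4%) and over days 3, 6 and 12 alone (31.9%). The last 2 settings were chosen after seeing the data.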

Other observations

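The 2 HNKO libraries of day 21 marked as failed, 17 and 18, had lower total counts than the 38 others, 12287423 and 15935527. On a scale of all 40 libraries, Tfam was 5.58 log2 CPM in library 17 and 4.59 in library 18, Esrra was 3.05 and 4.60, Gabpa was 5.40 and 6.03, and Tfb2m was 2.67 and 3.18.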
